A study of Mus musculus with 20 samples.

Results

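The change that comes with 5XFAD in microglia lacking Trem2 was measured by setting 6 arrays of Trem2-/-5XFAD mice against 4 arrays of Trem2-/- mice, 10 of the 20 arrays of the series. The arrays were chosen by genotype label alone, and every gene was considered. Microglia, the resident macrophages of the brain, had been sorted from dissociated brains of littermates aged 8.5 months, and their RNA was hybridised to 1-colour arrays. Both groups lack Trem2 (Trem2-/-), and the Trem2-/-5XFAD mice carry the 5XFAD transgenes in addition. The same change in mice with Trem2 was read from 5 arrays of 5XFAD and 4 of WT mice, and 1 array with conflicting genotype labels entered no group. 5XFAD mice express human amyloid precursor protein and presenilin genes with mutations of familial Alzheimer's disease from a neuronal promoter, and model amyloid plaques. Which part of Trem2 is deleted, whether an array holds 1 animal or a pool, and the sorting gate were not stated in the labels. P-values therefore measure the spread between arrays.

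Trem2 is a lipid-sensing receptor of microglia that binds lipoproteins, cell debris and amyloid and signals through the adaptor Tyrobp and the kinase Syk. Microglia next to plaques are known to take on a disease-associated state, abbreviated DAM, in which genes of lipid metabolism, lysosomes and phagocytosis rise and genes of the resting, homeostatic state fall. In the staged model of this state, stage 1 genes such as Apoe and Tyrobp rise without Trem2, and stage 2 genes such as Cst7, Lpl, Itgax and Axl need it. The comparison bears on which genes move with amyloid when the receptor is missing.

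All levels below are log2(intensity + 1), and all differences are log2 differences ± SE of 1 limma model over the 19 assigned arrays. A gene is called when its adjusted p is under 0.05, over 12728 genes tested. "Without Trem2" means Trem2-/-5XFAD minus Trem2-/-, "with Trem2" means 5XFAD minus WT, and the interaction is the first minus the second. Both differences rest on separate arrays.

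Trem2 itself read 6.84, 7.02, 7.0 and 6.98 in the Trem2-/- arrays and from 6.75 to 7.6 (median 6.96) in the Trem2-/-5XFAD arrays, against means of 11.31 in WT and 11.68 in 5XFAD. The groups without Trem2 overlapped each other (0.09 ± 0.13, adjusted p = 0.818), and the highest value, 7.6, was that of Trem2-/-5XFAD 4. Microglial markers averaged 11.32 to 11.44 in Trem2-/- and 11.19 to 11.26 in Trem2-/-5XFAD, which placed them among the strongest signals, and 0 of 9 were called. Over the 13 astrocyte markers with a probe set, tested or not, the Trem2-/- means ran from 4.84 to 5.00. Every Trem2-/-5XFAD array lay above this range (5.04 to 5.35). Likewise, the 13 oligodendrocyte markers with a probe set averaged 4.40 to 4.55 in Trem2-/- and 4.63 to 4.70 in Trem2-/-5XFAD. In sorted bulk samples, more cells of another type and more of their RNA per cell cannot be told apart. Neutrophil markers were high in Trem2-/- 1 (5.81), Trem2-/-5XFAD 1 (6.02) and Trem2-/-5XFAD 6 (5.37). The arrays also differed in sex-linked transcripts: Xist, expressed from the inactive X chromosome of females, lay at 9.14 to 9.40 in Trem2-/- 1, 2 and 3 and at 2.99 to 3.67 in Trem2-/- 4 and all 6 Trem2-/-5XFAD arrays. These 7 arrays carried Y-linked signal. Beyond the alternatives named beside a result, the part of sex-linked signal and of other cells in it was not tested.

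**Figure D1:**
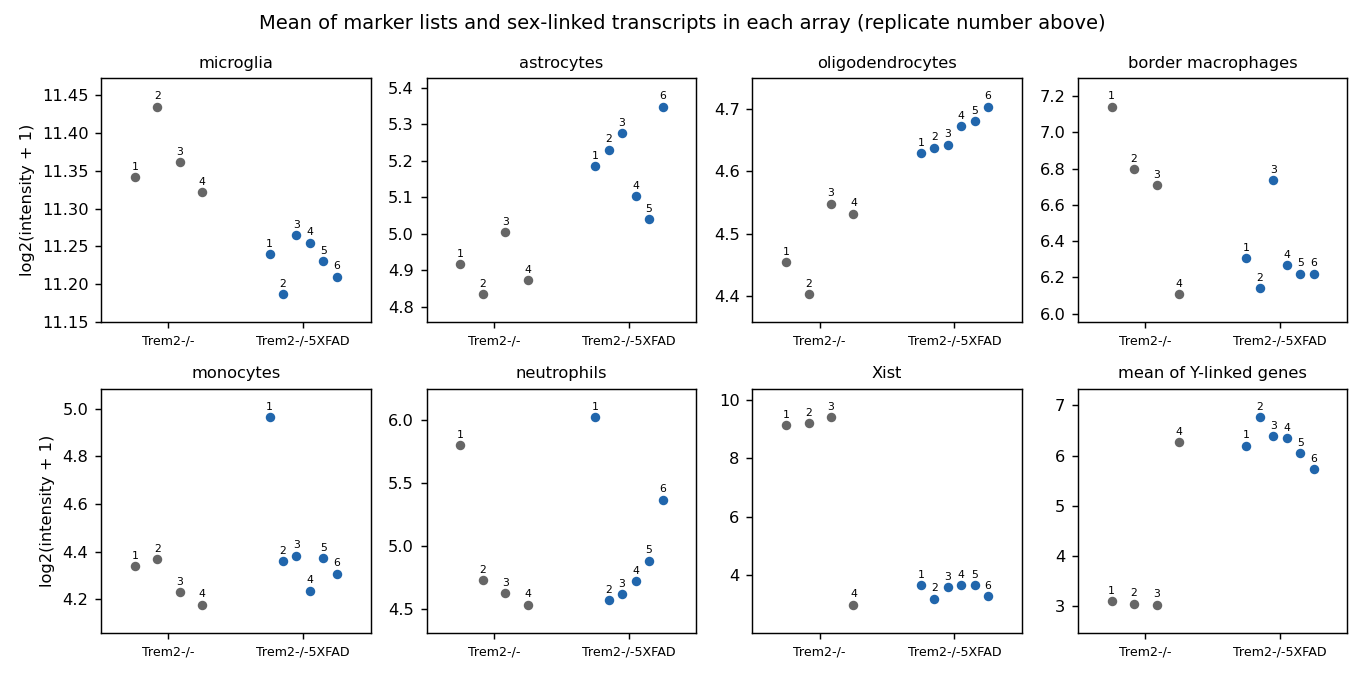
Mean log2(intensity + 1) of the members with a probe set, tested or not, of 6 marker lists, and of Xist and the Y-linked genes, in each of the 4 Trem2-/- and 6 Trem2-/-5XFAD arrays (points, replicate number above). Astrocyte and oligodendrocyte means do not overlap between the groups, neutrophil markers stand out in Trem2-/- 1 and Trem2-/-5XFAD 1, and Trem2-/- 4 is the 1 array of its group with Y-linked signal.

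Fewer genes were called between Trem2-/-5XFAD and Trem2-/- than between 5XFAD and WT, and most of those shared had the smaller change without Trem2. The protease inhibitor Cst7, the apolipoproteins Apoc1 and Apoe, the glycoprotein Gpnmb and lipoprotein lipase (Lpl) were among the genes that rose, and the orphan receptor Gpr165 and the secreted factor Serpinf1 among those that fell. Of 12728 genes 278 were called (2.18%): 207 rose (1.63%) and 71 fell (0.558%). The median SE was 0.14. Of these, 60 rose and 6 fell by more than 2-fold. Where the groups of a called gene are said below not to overlap, this largely follows from the call. It is no support beyond the call, and its share over all tested genes was not counted. With Trem2, 1909 genes were called (15%), 1047 higher (8.23%) and 862 lower (6.77%), and 307 rose by more than 2-fold. After median centring of the arrays, 141 genes rose and 92 fell without Trem2.

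Of the 278 genes called without Trem2, 209 were also called in the same direction with Trem2, 165 higher and 44 lower. These are 75.2% of the calls without Trem2 and 10.9% of the calls with Trem2. Among the 209, 173 had the smaller absolute change without Trem2. The interaction tests this difference directly. It was called for 331 genes of all tested (2.60%), 130 with a positive (1.02%) and 201 with a negative interaction (1.58%), and for 65 of the 209. All of these 65 moved less without Trem2. The median gene higher in both reached 61.7% of its log2 change with Trem2, and the median gene lower in both reached 75.3%. Of the 307 genes that rose more than 2-fold with Trem2, 110 (35.8%) were called higher without it.

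The genes called with Trem2 mostly had the same sign without it. Of the 1047 genes higher with Trem2, 893 (85.3%) had a positive difference without Trem2, against 53.7% of all tested genes, and their median difference was 0.23, compared with 0.70 with Trem2. Of the 862 lower with Trem2, 698 (81.0%) had a negative difference, with medians of -0.18 and -0.59. Among those not called without Trem2, 728 of 882 (82.5%) had a positive difference, with a median of 0.18, and 654 of 816 (80.1%) a negative one, with a median of -0.17. The 1047 and 862 genes, and the 307 above, were picked by their change with Trem2. Such picking tends to overstate that change, and its part in the smaller values without Trem2 was not tested. Y-linked signal was unbalanced in the same direction in both comparisons, in 1 of 4 WT and 4 of 5 5XFAD arrays and in 1 of 4 Trem2-/- and 6 of 6 Trem2-/-5XFAD arrays. Its part in the shared calls and signs was tested only by the alternatives: 135 of the shared calls in place of 209 with it as a covariate, and 74 among arrays that carry it. A further 67 genes were called without Trem2 alone, 40 higher and 27 lower, and the interaction was called for 2 of them. Not passing with Trem2 is therefore no sign of a response particular to Trem2-/- mice for the other 65.

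The counts depended on single arrays and on what was held constant. Without Trem2-/- 1 they were 133 higher and 31 lower, without Trem2-/- 3 129 and 29, and without Trem2-/- 2 the lower count was 34. Lower counts were also 44, 36, 43 and 42 without Trem2-/-5XFAD 1, 4, 5 and 6. With Y-linked signal as a covariate the counts were 137 and 23, and with the mean of markers of other brain cells as a covariate 61 and 7. That mean, taken over the neuronal, astrocyte, oligodendrocyte and vascular lists, ran from 4.24 to 4.41 in Trem2-/- and from 4.40 to 4.55 in Trem2-/-5XFAD. It thus nearly separated the groups by itself. These are the covariates meant below. Among arrays with Y-linked signal alone, 110 genes rose and 13 fell, but Trem2-/- and WT are then 1 array each, assumed to vary like the other groups. Of the 65 called genes that the naming rule picked, 26 were called under every alternative tried.

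**Figure D2:**
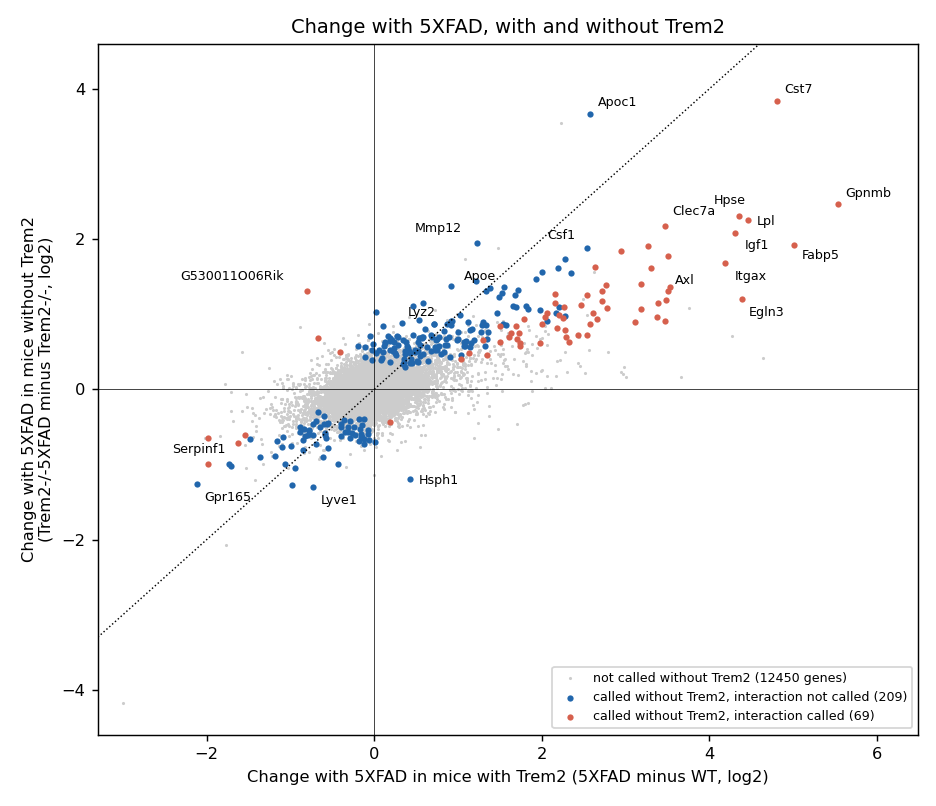
Each point is 1 of 12728 genes, with its log2 difference in mice with Trem2 on the x axis and in mice without Trem2 on the y axis; the dotted line marks equal change. Grey points were not called without Trem2, blue points were called with no called interaction (209 genes), and red points were called with a called interaction (69 genes). Most red points on the right lie below the line, such as Gpnmb at 5.54 and 2.47, while Apoc1 and Mmp12 lie above it.

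Stage 1 DAM genes moved by similar amounts with and without Trem2. Of 7 tested, 3 rose without Trem2 and the same number with it, the median differences were 0.16 and 0.23, and the interaction was called for 0 of 7. Over all genes the median difference without Trem2 was 0.02. Apoe, the main lipid carrier of the brain, read 11.74, 11.39, 11.41 and 10.88 in Trem2-/- and 12.63 to 12.84 (median 12.69) in Trem2-/-5XFAD. All 6 Trem2-/-5XFAD arrays lay above all 4 Trem2-/- arrays. Apoe rose by 1.36 ± 0.13, or 2.57-fold (adjusted p = 1.53e-06), which is 88.0% of its log2 change with Trem2 (1.55 ± 0.14), and its interaction was -0.19 ± 0.19 (adjusted p = 0.733).

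Lyz2, which encodes lysozyme, read 11.30, 11.28, 11.14 and 10.61 in Trem2-/- and 11.71 to 12.05 (median 11.96) in Trem2-/-5XFAD, again without overlap. It rose by 0.85 ± 0.12 (adjusted p = 0.000229), with 0.92 ± 0.13 in mice with Trem2 and an interaction of -0.07 ± 0.17 (adjusted p = 0.922). The third call was that of the lysosomal protease Ctsb, at 0.37 ± 0.09 (adjusted p = 0.041). Both groups held a value of 11.51 at the edge of their ranges, and the call was lost in 10 of the 19 fits that left out 1 array, with differences of 0.34 to 0.39, and with either covariate. The other 4 members were not called in either comparison: Tyrobp (0.11 ± 0.08), the ferritin heavy chain Fth1 (0.15 ± 0.08), the protease Ctsd (0.16 ± 0.07) and the MHC class I light chain B2m (0.03 ± 0.08).

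Stage 2 DAM genes rose without Trem2 too: 11 of 11 tested were called, as they were with Trem2, with medians of 1.68 and 2.95. The interaction was negative and called for 7 of the 11. Cst7, an inhibitor of lysosomal cysteine proteases, had the largest increase of all genes called without Trem2. It read 6.13, 6.99, 6.67 and 6.06 in Trem2-/- and 9.95 to 10.61 (median 10.29) in Trem2-/-5XFAD, so that the groups lay more than 2 log2 units apart. This was a rise of 3.84 ± 0.16, or 14.4-fold (adjusted p = 3.69e-12), and 79.9% of the rise with Trem2 (4.81 ± 0.17). The interaction of -0.97 ± 0.23 was called (adjusted p = 0.0288).

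Several stage 2 genes rose clearly less than with Trem2. Lpl, which frees fatty acids from lipoproteins, read 4.61, 4.42, 4.49 and 4.10 in Trem2-/- and 6.37 to 6.92 (median 6.65) in Trem2-/-5XFAD. It rose by 2.26 ± 0.18 (adjusted p = 7.63e-08), against 4.47 ± 0.18 with Trem2 (interaction -2.20 ± 0.25, adjusted p = 2.42e-05). The integrin subunit Itgax, also known as Cd11c, read 4.78, 4.62, 5.21 and 4.35 in Trem2-/- and 6.09 to 6.55 (median 6.49) in Trem2-/-5XFAD. Its rise of 1.68 ± 0.16 (adjusted p = 1.53e-06) was 40% of that with Trem2 (4.19 ± 0.17), and the interaction was -2.51 ± 0.24 (adjusted p = 1.6e-06).

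Axl, a receptor kinase for dying cells, read 5.25, 5.28, 5.58 and 5.17 in Trem2-/- and 6.40 to 6.94 (median 6.60) in Trem2-/-5XFAD. It rose by 1.31 ± 0.17 (adjusted p = 7.3e-05), 37.4% of the rise with Trem2, the lowest share among these 11 genes. Clec7a, the beta-glucan receptor dectin-1, rose by 2.18 ± 0.17 from a Trem2-/- mean of 5.71 ± 0.20 (SD, n = 4) to 7.89 ± 0.26 (SD, n = 6), and the inhibitory receptor Lilrb4a by 1.84 ± 0.19. Both had a called negative interaction (-1.30 and -1.11). In all of these genes the groups did not overlap.

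The interaction was not called for the other stage 2 genes. Csf1, the growth factor that maintains microglia, read 6.85, 7.28, 7.18 and 6.57 in Trem2-/- and 8.72 to 9.08 (median 8.84) in Trem2-/-5XFAD. It rose by 1.89 ± 0.13 (adjusted p = 1.36e-08) against 2.54 ± 0.13 with Trem2, with an interaction of -0.65 ± 0.18 (adjusted p = 0.0614). The tetraspanin Cd9 rose by 0.69 ± 0.10, with 0.54 ± 0.10 in mice with Trem2 (interaction 0.15 ± 0.14, adjusted p = 0.704), though among arrays with Y-linked signal alone its call was lost. The metalloprotease inhibitor Timp2 (0.41 ± 0.09) and the cathepsin gene Ctsl (0.36 ± 0.08) rose as well. Ccl6, a chemokine, rose by 0.70 ± 0.10, 43.2% of its change with Trem2, and belongs to the 7 with a called interaction.

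The longer list of further DAM genes divided. Of 34 tested members of 36, 17 rose without Trem2 and 0 fell, and 30 rose with Trem2, with medians of 0.69 and 1.66. The interaction was negative and called for 17. With the markers of other brain cells as a covariate, 10 in place of 17 were called. Gpnmb, a glycoprotein of lysosomes and the cell surface, read 3.55, 3.62, 4.6 and 3.79 in Trem2-/- and 5.78 to 6.97 (median 6.43) in Trem2-/-5XFAD. It rose by 2.47 ± 0.25 (adjusted p = 3.06e-06) and by 5.54 ± 0.26 with Trem2 (interaction -3.07 ± 0.36, adjusted p = 3.29e-05). In Trem2-/- it averaged 3.89 and Hpse 4.0, both below the 40th percentiles of the arrays (4.16 to 4.34). Folds that start from so weak a signal are uncertain, which holds for 13 of the 207 genes that rose, Egln3 and Etl4 among them.

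Hpse, which cleaves heparan sulfate, rose by 2.31 ± 0.18 without Trem2 and 4.35 ± 0.18 with it. The growth factor Igf1 read 5.02, 4.36, 5.38 and 4.84 in Trem2-/- and 6.46 to 7.53 (median 7.09) in Trem2-/-5XFAD, without overlap. It rose by 2.09 ± 0.26 (adjusted p = 4.61e-05), 48.3% of the change with Trem2. The lipid chaperone Fabp5, which carries fatty acids, rose by 1.92 ± 0.25, 38.4% of the change with Trem2, with an interaction of -3.09 ± 0.37. Lgals3 (galectin-3) kept more: it read 6.22, 6.19, 5.52 and 5.85 in Trem2-/- and 7.18 to 7.87 (median 7.47) in Trem2-/-5XFAD, a rise of 1.56 ± 0.15 against 2.00 ± 0.16 (interaction adjusted p = 0.375). The phosphatidylserine-binding protein Anxa5 rose by 1.27 ± 0.13, and its interaction of -0.89 ± 0.18 was called (adjusted p = 0.00881).

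Some DAM genes that rose strongly with Trem2 were not called without it. Chosen after their values were seen, they included Mamdc2 (0.41 ± 0.22 without and 4.64 with Trem2), the transcription factor Bhlhe40 (0.71 ± 0.26 and 4.28), the proton pump subunit Atp6v0d2 (0.17 ± 0.18 and 3.67), the oxidase subunit Cybb (0.16 ± 0.20 and 3.0) and the Wnt antagonist Dkk2 (0.21 ± 0.13 and 2.97). The interaction was called for each, at -3.57 for Bhlhe40, -2.84 for Cybb and -2.76 for Dkk2. Mamdc2 averaged 3.46 in Trem2-/- and 3.87 in Trem2-/-5XFAD, and Atp6v0d2 3.33 and 3.5, all under the 40th percentiles of 4.16 to 4.34, as was the Trem2-/- mean of Bhlhe40 at 4.01. At so weak a signal a difference without Trem2 may not be measurable, and for Mamdc2 and Atp6v0d2 the fitted interactions (-4.23 and -3.50) set a measured rise with Trem2 against signals near the floor.

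**Figure D3:**
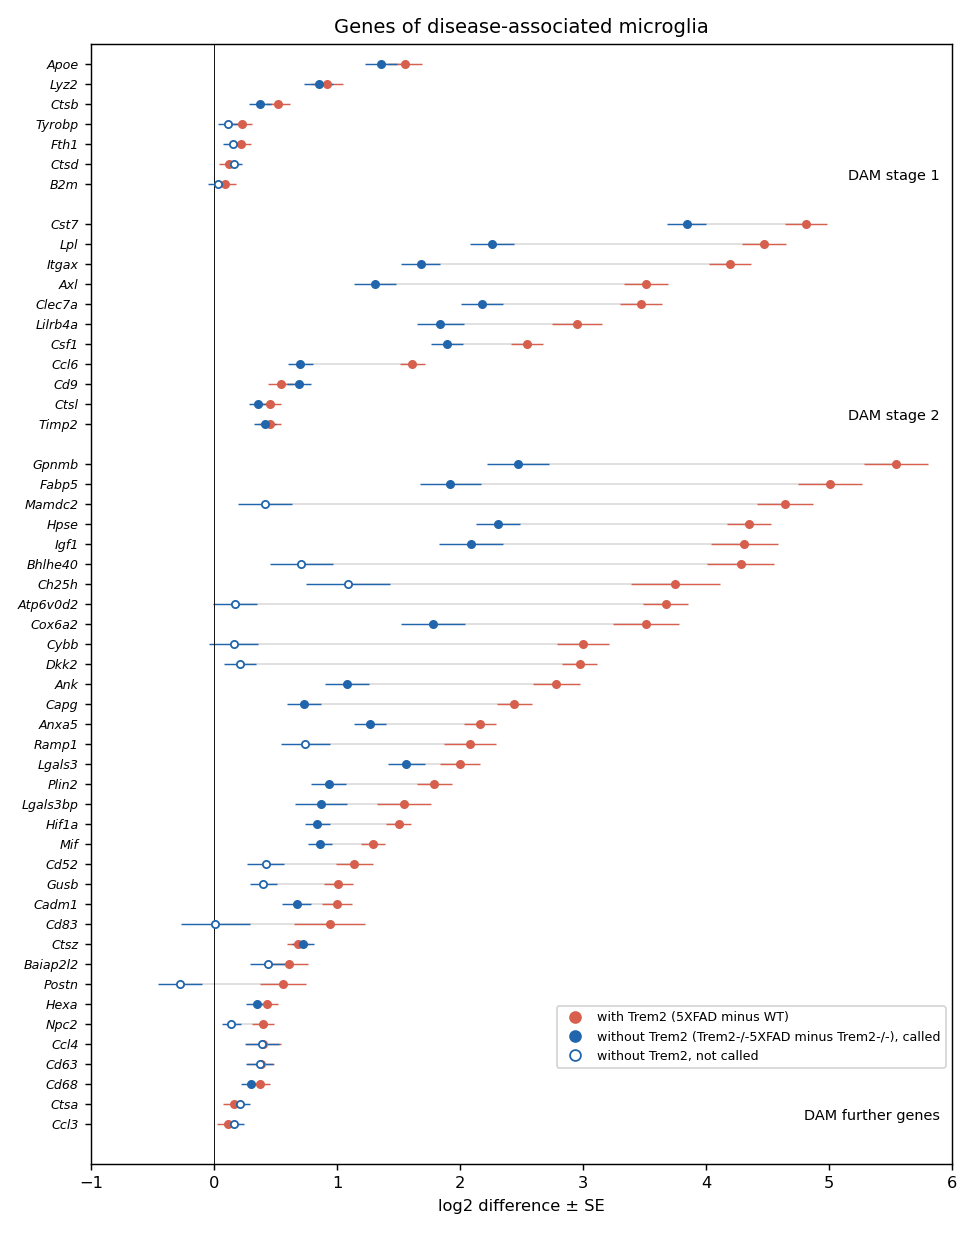
Log2 difference ± SE of the 52 tested DAM genes with Trem2 (5XFAD minus WT, red) and without Trem2 (Trem2-/-5XFAD minus Trem2-/-, blue; filled where called, open where not), by list. Stage 1 pairs lie close together, stage 2 genes such as Itgax (4.19 and 1.68) are called in both but shifted, and Mamdc2, Atp6v0d2 and Dkk2 have open points near 0.

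Promoters of the called genes were read from RefSeq, 250 bases before to 50 after the start site on assembly GRCm38.p6, to show the sequence of genes that moved together. Of 31 called DAM genes 25 matched. For a gene with several start sites, such as Clec7a (2) and Apoe (3), only the first listed was searched. The shares over all promoters given below count every start site. The letters searched on both strands were the interferon-stimulated response element (ISRE), which is GAAA, any 2 bases and GAAA, the E-box CACGTG, the PU box GAGGAAGT, the AP-1 site TGANTCA and the cyclic AMP response element (CRE) TGACGTCA. Among 32851 promoters these occur in 3.44%, 7.15%, 3.2%, 7.81% and 1.79%. The AP-1 letters were found in 5 of the 25, the E-box in 3, the CRE in 1, and the ISRE and PU box in 0. Cst7 (chr2:150570165-150570464, plus strand) and Gpnmb (chr6:49036268-49036567, plus strand), both among the largest increases, are printed 5′ to 3′ with the AP-1 letters in capitals:
Cst7: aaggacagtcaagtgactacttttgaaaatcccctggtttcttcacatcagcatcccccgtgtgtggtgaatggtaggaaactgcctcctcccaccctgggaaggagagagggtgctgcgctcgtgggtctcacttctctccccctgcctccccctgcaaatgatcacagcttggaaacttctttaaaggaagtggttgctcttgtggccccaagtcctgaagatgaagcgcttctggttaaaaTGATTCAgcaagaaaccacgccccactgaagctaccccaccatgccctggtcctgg
Gpnmb: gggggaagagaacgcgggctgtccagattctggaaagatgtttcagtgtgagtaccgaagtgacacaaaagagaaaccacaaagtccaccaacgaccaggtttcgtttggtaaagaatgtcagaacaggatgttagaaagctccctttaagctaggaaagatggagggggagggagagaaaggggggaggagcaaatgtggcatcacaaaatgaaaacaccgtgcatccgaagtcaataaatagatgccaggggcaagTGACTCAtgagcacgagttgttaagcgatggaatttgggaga
The third of the 3 largest DAM increases with a promoter, Hpse, holds none of the 5 motifs. A match is a description of letters and not of a bound site.

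Lipid handling genes were among the largest increases. Of 32 tested, 8 rose and 1 fell without Trem2, with a median of 0.30, against 13 and 2 with Trem2 and a median of 0.04. The interaction was called for 9 of the 32, negative for 6 and positive for 3. Apoc1, an apolipoprotein of the same gene cluster as Apoe, read 3.66, 4.33, 4.89 and 4.34 in Trem2-/- and 6.73 to 8.63 (median 8.17) in Trem2-/-5XFAD. All Trem2-/-5XFAD values lay above all Trem2-/- values, but their range overlapped that of the 5XFAD arrays (5.70 to 7.40, mean 6.68). It rose by 3.67 ± 0.33, or 12.8-fold (adjusted p = 8.1e-07), and by 2.58 ± 0.35 with Trem2; the interaction of 1.09 ± 0.48 was not called (adjusted p = 0.298). The Apoc1 mean was 4.3 in Trem2-/- and 4.1 in WT. These lie within or under the 40th percentiles of the arrays (4.16 to 4.34), so the size of both rises is uncertain. Named after their values were seen, Apoc4, the neighbour of Apoc1, rose by 0.87 ± 0.15 without and 0.87 with Trem2, and the cholesterol exporter Abcg1 by 0.57 ± 0.15 without Trem2 alone (-0.19 with Trem2; interaction adjusted p = 0.0635). The member that fell was the triglyceride lipase Pnpla2 (-0.64 ± 0.12, adjusted p = 0.00604).

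Cholesterol synthesis was not called in any member without Trem2. Of 23 tested genes 0 rose and 0 fell, with a median of 0.02, the same as over all genes, whereas 12 rose with Trem2 (median 0.55). The interaction was called and negative for 9. Srebf2, the master regulator of the pathway, read 6.77, 6.56, 6.24 and 6.14 in Trem2-/- and 6.27 to 6.48 (median 6.47) in Trem2-/-5XFAD, within the same range. Its difference was -0.02 ± 0.11 without and 1.13 ± 0.12 with Trem2 (interaction -1.15 ± 0.17, adjusted p = 0.000336).

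Antigen presentation by MHC class II split in the same way. Of 12 tested members 0 were called without Trem2 (median -0.06), and 5 rose and 1 fell with it (median 0.30). Cd74, the invariant chain, read 8.62, 8.53, 8.69 and 8.73 in Trem2-/- and 8.09 to 9.02 (median 8.39) in Trem2-/-5XFAD. The range of Trem2-/-5XFAD enclosed that of Trem2-/-. The difference was -0.20 ± 0.17 (adjusted p = 0.647), against a rise of 1.77 ± 0.18 with Trem2, and the interaction was -1.98 ± 0.25 (adjusted p = 6.18e-05). The class II chains H2-Aa, H2-Ab1 and H2-Eb1, which with Cd74 make up the 4 members with a called interaction, had differences of -0.46 ± 0.27, -0.19 ± 0.26 and -0.52 ± 0.26 without Trem2. Since H2 genes resemble each other closely, a probe set named for one can pick up another. In MHC class I presentation 0 of 17 were called without and 6 with Trem2, and the interaction was called for 0.

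Interferon response genes rose in part. Of 32 tested members of 38, 8 rose and 0 fell without Trem2 (median 0.58), 22 rose with Trem2 (median 0.88), and the interaction was called for 0. A positive difference without Trem2 was seen in 30 of the 32. The chemokine Cxcl10 read 8.55, 9.13, 8.74 and 9.0 in Trem2-/- and 9.96 to 10.52 (median 10.19) in Trem2-/-5XFAD. It rose by 1.35 ± 0.22, or 2.55-fold (adjusted p = 0.00144), and by 1.39 ± 0.23 with Trem2 (interaction -0.04 ± 0.32, adjusted p = 0.981). Ifitm3, a membrane protein that blocks virus entry, read 8.94, 9.13, 8.72 and 8.29 in Trem2-/- and 9.60 to 10.37 (median 9.81) in Trem2-/-5XFAD. It rose by 1.12 ± 0.18 (adjusted p = 0.00126), 67.3% of its change with Trem2.

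Slfn5, a schlafen family gene induced by interferon, rose by 1.07 ± 0.19 (adjusted p = 0.00267), and these 3 genes did not overlap between groups. The other 5 calls, named after their values were seen, were Ifit2 (1.26 ± 0.28), Oasl2 (1.02 ± 0.23), Ifit3 (1.01 ± 0.24), Rsad2 (0.92 ± 0.17) and Bst2 (0.60 ± 0.12), all antiviral effectors. The count was 5 without Trem2-/- 1 and Trem2-/-5XFAD 1, 12 with Y-linked signal as a covariate, and 1 with the markers of other brain cells as a covariate. Under the last covariate Cxcl10 and Slfn5 lost their calls and Ifitm3 kept it. Astrocyte marker means were also higher in Trem2-/-5XFAD, as given above. Whether they are linked to the values of this list was not tested.

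All 8 called interferon genes matched a RefSeq promoter, and 6 of the 8 held the ISRE letters, found in 3.44% of all promoters. Of these, Ifitm3, Ifit3 and Bst2 held them 2 times and Cxcl10, Slfn5 and Rsad2 once. Oasl2 did not hold them in this window, nor did Ifit2 at the first of its 2 start sites, the only one searched. The AP-1 letters occurred in 4 of the 8. The list was chosen for the interferon response, and its uncalled members were not counted separately. The share with ISRE letters is thus no support for the calls. Cxcl10 (chr5:92348840-92349139, minus strand) and Ifitm3 (chr7:141010695-141010994, minus strand) are printed as examples, 5′ to 3′ along the gene, with ISRE and AP-1 (TGANTCA) letters in capitals:
Cxcl10: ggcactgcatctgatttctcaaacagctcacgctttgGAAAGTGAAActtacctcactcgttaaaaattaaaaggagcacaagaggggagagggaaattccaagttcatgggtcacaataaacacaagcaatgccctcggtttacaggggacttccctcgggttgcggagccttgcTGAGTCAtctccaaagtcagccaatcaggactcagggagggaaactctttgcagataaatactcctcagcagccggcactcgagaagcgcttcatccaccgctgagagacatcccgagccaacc
Ifitm3: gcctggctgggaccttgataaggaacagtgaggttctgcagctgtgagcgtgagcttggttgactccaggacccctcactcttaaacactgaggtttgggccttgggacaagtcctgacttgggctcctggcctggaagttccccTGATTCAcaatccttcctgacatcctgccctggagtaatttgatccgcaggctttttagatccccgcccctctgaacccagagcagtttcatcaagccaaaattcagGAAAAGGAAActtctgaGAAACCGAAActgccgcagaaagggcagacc
The ISRE letters lie near the start site in Ifitm3 and near the upstream end of the window in Cxcl10.

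Homeostatic genes stayed closer to their Trem2-/- level. Of 36 tested members of 39, 2 fell and 0 rose without Trem2 (median -0.14), against 29 that fell with Trem2 (median -0.50), and the interaction was positive and called for 8. Only 4 of the 36 had a positive difference without Trem2, against 53.7% of all tested genes, so most members shifted slightly down. P2ry12, the purinergic receptor that steers microglial processes, read 11.36, 11.45, 11.34 and 11.44 in Trem2-/- and 11.02 to 11.32 (median 11.19) in Trem2-/-5XFAD. The ranges just did not overlap, but the difference of -0.22 ± 0.10 was not called (adjusted p = 0.351). With Trem2 P2ry12 fell by 0.80 ± 0.11, and the interaction of 0.58 ± 0.15 was called (adjusted p = 0.0404). Tmem119, a microglial membrane protein, gave -0.27 ± 0.09 (adjusted p = 0.125) without and -0.96 ± 0.09 with Trem2 (interaction adjusted p = 0.00385). The fractalkine receptor Cx3cr1 gave -0.08 ± 0.08 and the identity factor Sall1 -0.15 ± 0.13, and neither interaction was called (adjusted p = 0.0526 and 0.0597).

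The members that fell were Gpr165 and Crybb1. Gpr165, an orphan receptor on the X chromosome, read 10.08, 9.13, 9.69 and 9.94 in Trem2-/- and 7.78 to 8.78 (median 8.48) in Trem2-/-5XFAD, with Trem2-/-5XFAD 1 lowest. It fell by 1.26 ± 0.25 (adjusted p = 0.00814), 59.6% of its fall with Trem2 of 2.12 ± 0.26. Crybb1, a crystallin gene typical of microglia, fell by 0.60 ± 0.13 (adjusted p = 0.0146) and by 1.55 ± 0.13 with Trem2 (interaction 0.94 ± 0.19). Crybb1 lost its call without Trem2-/- 1 (-0.54), 2 (-0.55) or 3 (-0.59), and both genes lost it with either covariate and without Trem2-/- 1 and Trem2-/-5XFAD 1 together. Neither promoter holds any of the 5 motifs.

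Among 25 microglial transcription factors 1 rose and 1 fell without Trem2. Hif1a, which drives the hypoxia response, read 8.08, 8.09, 7.86 and 8.24 in Trem2-/- and 8.82 to 9.04 (median 8.87) in Trem2-/-5XFAD. It rose by 0.84 ± 0.10 (adjusted p = 1.97e-05), 56.0% of its change with Trem2, and the interaction of -0.66 ± 0.14 was called (adjusted p = 0.0119). Cebpb, an inflammatory transcription factor, fell by 0.59 ± 0.13 (adjusted p = 0.0184), with -0.08 ± 0.14 in mice with Trem2 and no called interaction (adjusted p = 0.188). Its call was lost without Trem2-/- 2 (-0.47) or 3 (-0.56), together without Trem2-/- 1 and Trem2-/-5XFAD 1 (-0.62), with Y-linked signal (-0.57) or markers of other brain cells (-0.62) as a covariate, and among arrays with Y-linked signal (-0.28). Hif1a lost its call in the last of these alone (0.67).

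**Figure D4:**
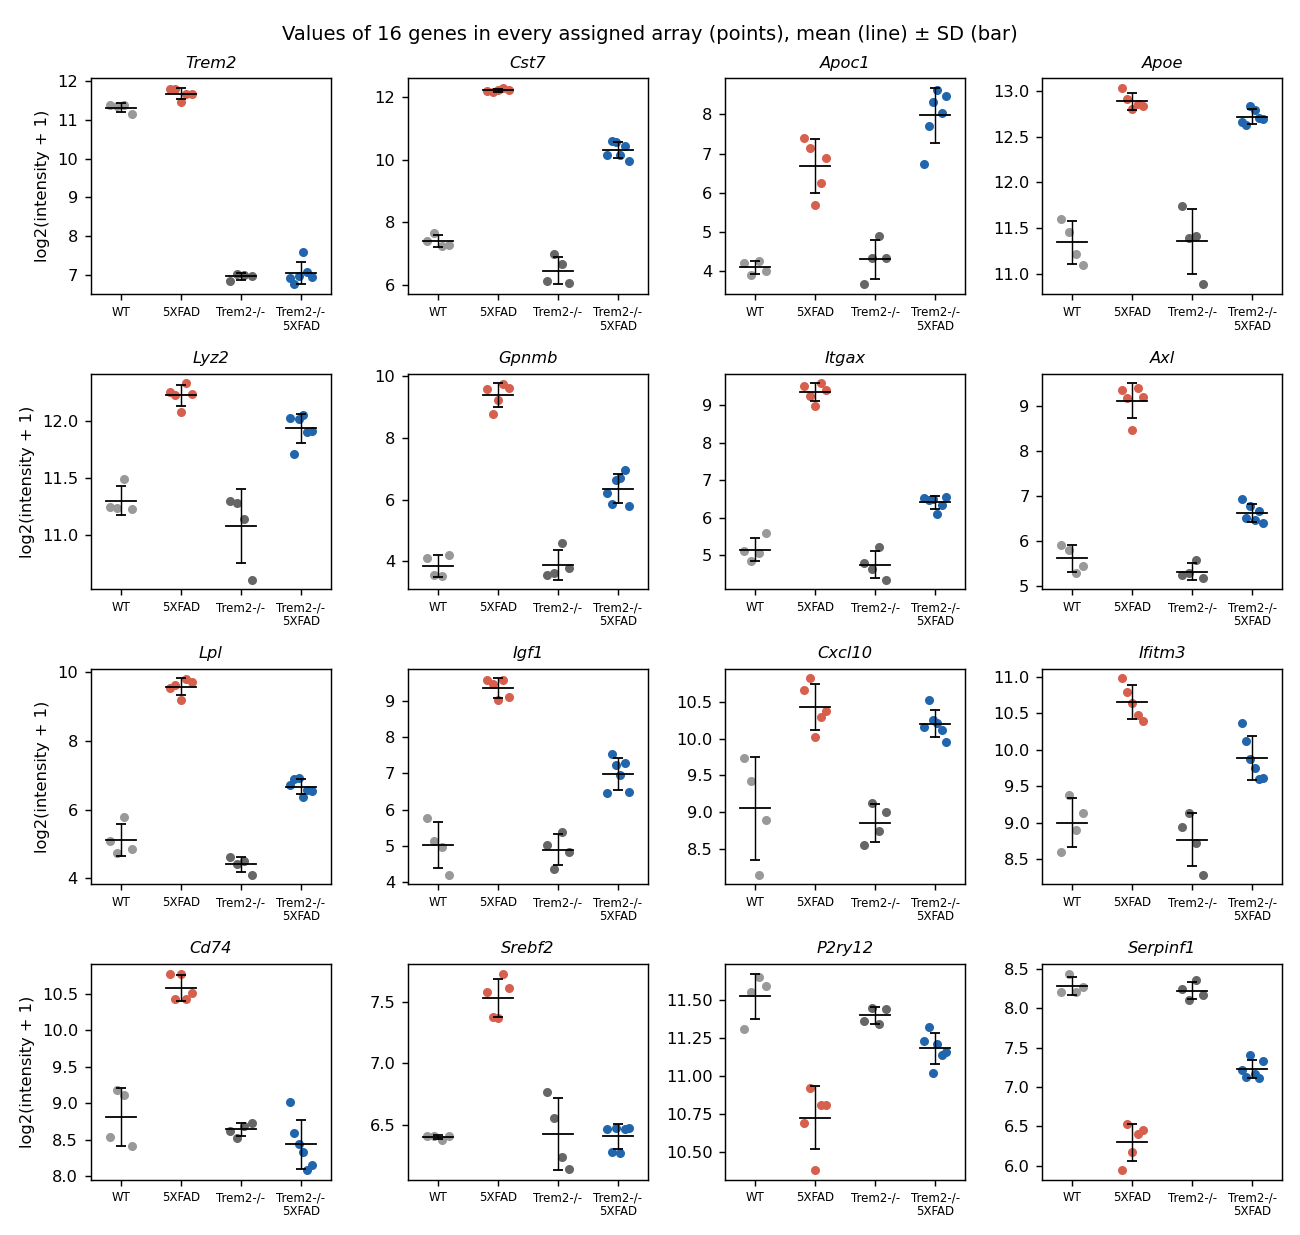
Log2(intensity + 1) of 16 genes in every assigned array of the 4 groups (points: 4 WT, 5 5XFAD, 4 Trem2-/-, 6 Trem2-/-5XFAD), with the mean (line) and SD (bar); each panel has its own y axis, which does not start at 0. Apoe, Lyz2 and Cxcl10 rise by similar amounts with and without Trem2, and Gpnmb, Itgax and Lpl rise less without Trem2. Apoc1 has its highest mean in Trem2-/-5XFAD, and Cd74 and Srebf2 overlap between the groups without Trem2.

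Lysosomal enzymes rose modestly. Of 36 tested hydrolases 6 rose and 0 fell without Trem2 (median 0.13), against 13 and 4 with Trem2 (median 0.21). The cathepsin gene Ctsz read 11.05, 11.22, 11.05 and 11 in Trem2-/- and 11.68 to 11.90 (median 11.81) in Trem2-/-5XFAD, without overlap. Its rise of 0.72 ± 0.09 (adjusted p = 3.21e-05) was as large as that with Trem2 (0.68 ± 0.09; interaction 0.04 ± 0.13, adjusted p = 0.933). The galactosidase Glb1 rose by 0.58 ± 0.12, and the glycogen-degrading enzyme Gaa by 0.52 ± 0.12, the same as with Trem2 (0.52 ± 0.12). Gaa lost its call in 4 of the 19 fits without 1 array (0.47 to 0.53) and with either covariate, and Glb1 with the markers of other brain cells (0.52). The count was 3 without Trem2-/- 1 and Trem2-/-5XFAD 1 and also with Y-linked signal as a covariate, and 1 with the markers of other brain cells.

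In the lysosomal membrane and proton pump list 2 of 27 rose. The pump subunit Atp6v1a gave 0.57 ± 0.14 (adjusted p = 0.0352) and the macrophage sialomucin Cd68 0.30 ± 0.08 (adjusted p = 0.0445). These calls were lost in 8 and 15 of the 19 fits without 1 array, at differences of 0.40 to 0.60 for Atp6v1a and 0.28 to 0.31 for Cd68, and with either covariate.

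Secreted signals and growth factors were called in part. Of 36 cytokines and chemokines 7 rose and 0 fell without Trem2 (median 0.22), against 16 and 5 with Trem2 (median 0.54), and 6 had a called negative interaction. Besides Csf1, Cxcl10 and Ccl6, the cytokine Mif read 10.43, 10.57, 10.45 and 10.39 in Trem2-/- and 11.10 to 11.45 (median 11.36) in Trem2-/-5XFAD. Mif rose by 0.86 ± 0.10 (adjusted p = 2.05e-05), 66.6% of its change with Trem2, with no overlap between groups. The other 3 calls, named after their values were seen, were the ligands Tnfsf9 (1.36 ± 0.29) and Tnfsf8 (0.95 ± 0.22) and the chemokine Cxcl16 (0.56 ± 0.14). Interleukin-1 beta (Il1b), named in the same way, was not called (0.99 ± 0.33, adjusted p = 0.14). With the markers of other brain cells as a covariate 3 of the 36 were called.

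Of 19 trophic and angiogenic factors 2 rose without Trem2, Igf1 and Csf1, and 10 with it. The angiogenic factor Vegfa was not called (0.59 ± 0.17, adjusted p = 0.0886), although its values of 5.60 to 6.13 in Trem2-/- and 6.22 to 6.68 in Trem2-/-5XFAD did not overlap. With Trem2 it rose by 1.52 ± 0.18, and the interaction was -0.93 ± 0.25 (adjusted p = 0.0534).

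Receptors and their signalling proteins were largely not called. Of 35 phagocytic and Fc receptors 3 rose, Clec7a, Axl and the pattern receptor Tlr2, and 9 rose and 5 fell with Trem2. Tlr2 read 9.66, 9.77, 9.76 and 9.64 in Trem2-/- and 10.26 to 10.49 (median 10.34) in Trem2-/-5XFAD, a rise of 0.66 ± 0.09 (adjusted p = 0.000229) and 50.7% of that with Trem2. Of 29 genes of TREM and ITAM signalling 2 rose. The Trem-like receptor Treml2 rose by 0.81 ± 0.18 (adjusted p = 0.0202), but its call was lost without Trem2-/- 1 (0.68) or 2 (0.64), with Y-linked signal (0.63) or markers of other brain cells (0.49) as a covariate, and among arrays with Y-linked signal (0.17). The phosphatase Ptpn6, also known as SHP-1, rose by 0.39 ± 0.09 (adjusted p = 0.0212), with 0.08 ± 0.09 in mice with Trem2 and no called interaction (adjusted p = 0.263), and lost its call in 5 of 19 fits without 1 array (0.36 to 0.41) and with either covariate. Of 12 complement genes Itgax alone was called.

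Metabolic genes were raised in a minority. Of 24 glycolysis and hypoxia genes 6 rose without Trem2 (median 0.30) and 15 with it (median 0.63), and 5 had a called negative interaction. Besides Hif1a, the glycolytic enzyme Pgk1 rose by 0.66 ± 0.14 (adjusted p = 0.0128), a call lost without Trem2-/- 4 (0.51), and Pkm by 0.48 ± 0.11 (adjusted p = 0.0234), lost in 4 of 19 such fits (0.38 to 0.46). Egln3, the prolyl hydroxylase that acts on Hif1a, rose by 1.2 ± 0.30 (adjusted p = 0.041) against 4.39 ± 0.32 with Trem2 (interaction -3.19 ± 0.44, adjusted p = 0.000189). Trem2-/-5XFAD 2 stood apart at 6.42, against 4.24 to 4.87 in the other 5 arrays. The Egln3 call was lost in 9 of 19 fits without 1 array (1.07 to 1.34) and with either covariate, and its Trem2-/- mean of 3.69 lay under the 40th percentiles. Pkm lost its call with either covariate as well. The list count was 3 with Y-linked signal or with markers of other brain cells as a covariate.

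In oxidative phosphorylation 2 of 39 rose without Trem2 and 17 with it. The cytochrome oxidase subunit Cox6a2 read 6.74, 6.91, 7.39 and 6.98 in Trem2-/- and 8.50 to 9.05 (median 8.77) in Trem2-/-5XFAD. Cox6a2 rose by 1.78 ± 0.26 (adjusted p = 0.000301), 50.8% of the change with Trem2, with a called interaction of -1.73 ± 0.37. Its call was lost with the markers of other brain cells as a covariate (1.47). The X-linked complex I subunit Ndufa1 rose by 0.90 ± 0.18, and lost its call with either covariate. Cytosolic ribosomal proteins had 0 of 35 called without and 16 with Trem2, and cell cycle genes 0 of 28, against 5 higher and 1 lower. The interaction was called for 0 members of either list.

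Stress and timing genes gave single calls. Psat1, an enzyme of serine synthesis in the integrated stress response list (1 higher and 1 lower of 23), read 6.91, 7.04, 6.95 and 6.57 in Trem2-/- and 7.90 to 8.40 (median 8.16) in Trem2-/-5XFAD. It rose by 1.32 ± 0.16 (adjusted p = 2.05e-05), 77.0% of the change with Trem2. Of 35 immediate early and dissociation stress genes 1 fell, the heat shock protein Hsph1 (-1.19 ± 0.30, adjusted p = 0.0417). Hsph1 read 7.95, 7.95 and 8.03 in Trem2-/- 1 to 3, and 6.52 in Trem2-/- 4, which lay inside the Trem2-/-5XFAD range of 5.80 to 7.10. The call was lost in 9 of 19 fits without 1 array and with either covariate. Among arrays with Y-linked signal alone Hsph1 differed by -0.10. Of 17 clock genes the output factor Hlf fell, by 0.99 ± 0.18 (adjusted p = 0.00314) and by 1.07 ± 0.18 with Trem2, but was not called among arrays with Y-linked signal (-0.56). Of 25 NF-kappaB and inflammasome genes Tlr2 alone was called, and of 20 survival and apoptosis genes 0, against 3 higher and 2 lower with Trem2.

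**Figure D5:**
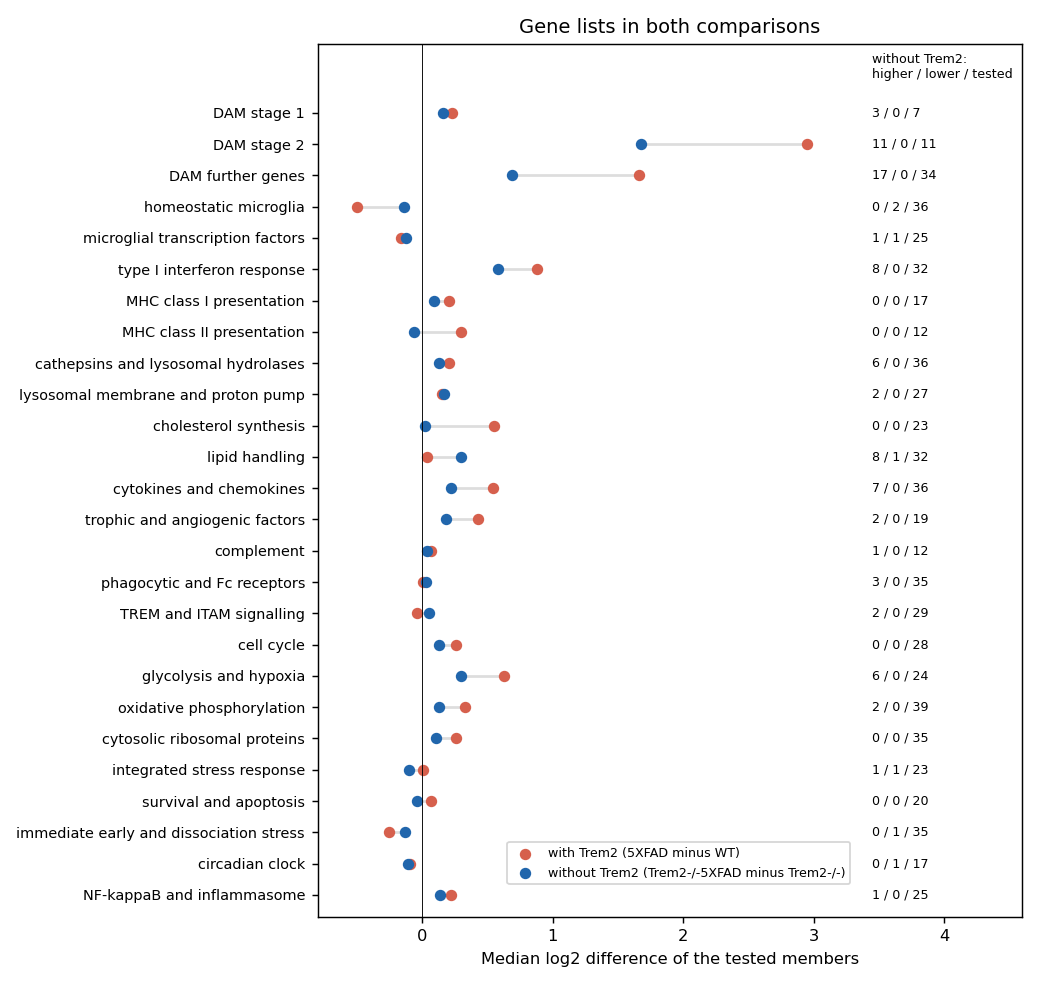
Median log2 difference of the tested members of 26 gene lists with Trem2 (red) and without Trem2 (blue); the numbers at the right give members called higher, called lower and tested without Trem2. The blue point lies nearer to 0 in most lists, including DAM stage 2 (1.68 against 2.95) and cholesterol synthesis (0.02 against 0.55), and farther from 0 in lipid handling (0.30 against 0.04).

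The remaining large increases lay outside most lists. Mmp12, a macrophage elastase, read 4.23, 4.48, 4.75 and 4.14 in Trem2-/- and 5.89 to 6.62 (median 6.42) in Trem2-/-5XFAD. It rose by 1.95 ± 0.17 (adjusted p = 7.08e-07) and by 1.22 ± 0.18 with Trem2, with an interaction of 0.73 ± 0.25 that was not called (adjusted p = 0.149). The unconventional myosin Myo1e rose by 1.90 ± 0.18, 58.2% of the change with Trem2 (interaction -1.37 ± 0.26). The genes with the most negative interaction among the calls were, besides Egln3, Fabp5, Gpnmb and Itgax, Etl4 (0.91 ± 0.20, interaction -2.57) and the LIM-domain protein Crip1 (0.96 ± 0.15, interaction -2.42). Etl4 lost its call without Trem2-/- 1 or 2 (0.80 in both), together without Trem2-/- 1 and Trem2-/-5XFAD 1 (0.79), and with the markers of other brain cells as a covariate (0.71), and its Trem2-/- mean of 4.10 lay under the 40th percentiles. Crip1 lost its call with that covariate (0.72).

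Decreases were fewer and smaller. Sult1a1, a sulfotransferase, read 8.74, 8.64, 8.84 and 7.92 in Trem2-/- and 7.01 to 7.54 (median 7.25) in Trem2-/-5XFAD. It fell by 1.27 ± 0.18, a level 2.42 times lower (adjusted p = 0.000264), and by 0.98 ± 0.19 with Trem2, but was not called among arrays with Y-linked signal (-0.66). Serpinf1, a secreted neurotrophic serpin, read 8.24, 8.11, 8.36 and 8.17 in Trem2-/- and 7.12 to 7.41 (median 7.2) in Trem2-/-5XFAD, the clearest separation among the decreases. It fell by 0.99 ± 0.11 (adjusted p = 1.02e-05), 50.1% of the fall with Trem2, and the interaction of 0.99 ± 0.16 was called (adjusted p = 0.000982).

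Several surface receptors were among the 12 largest decreases. The prostaglandin receptor Ptger3 fell by 1.05 ± 0.22, the interleukin-7 receptor Il7r by 1.02 ± 0.23, the platelet glycoprotein Gp9 by 1.0 ± 0.15 and the semaphorin Sema4b by 0.90 ± 0.19, each without overlap between groups and each also lower with Trem2. Ptger3 lost its call without Trem2-/- 1 (-0.87), and Il7r without Trem2-/- 1 (-0.92) or 3 (-0.96). With either covariate Ptger3, Il7r and Sema4b lost their calls and Gp9 kept its own, and among arrays with Y-linked signal none of the 4 was called, with differences of -1.12 for Ptger3, -0.58 for Il7r, -1.18 for Sema4b and -0.83 for Gp9. Jdp2, a repressor of the AP-1 family, fell by 0.99 ± 0.24 (adjusted p = 0.0335), but Trem2-/- 4 at 6.82 lay among the Trem2-/-5XFAD values of 6.40 to 6.83, and 8 of 19 fits without 1 array lost the call (-0.84 to -1.01). So did Y-linked signal (-0.99) and markers of other brain cells (-0.69) as covariates, and among arrays with Y-linked signal Jdp2 differed by -0.18. Clec4a2, an inhibitory lectin receptor, fell by 0.65 ± 0.16, 32.7% of its fall with Trem2 (interaction 1.34 ± 0.23), and lost the call in 8 of 19 fits (-0.55 to -0.68), with either covariate, and among arrays with Y-linked signal (-0.30).

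The decreases held markers of border macrophages, which line vessels and meninges. Lyve1, a hyaluronan receptor, read 8.41, 8.32, 7.59 and 6.08 in Trem2-/- and 6.18 to 6.46 (median 6.30) in Trem2-/-5XFAD. The fall of 1.30 ± 0.34 (adjusted p = 0.0445) thus came from Trem2-/- 1 to 3, while Trem2-/- 4 lay below all Trem2-/-5XFAD arrays. Among arrays with Y-linked signal alone the difference was 0.22, and 11 of 19 fits without 1 array lost the call (-1.04 to -1.34). The haemoglobin receptor Cd163 fell by 0.90 ± 0.22 (adjusted p = 0.0316), with Trem2-/- 4 again lowest of its group at 5.35, and 7 such fits lost the call (-0.68 to -0.94), as did either covariate; among arrays with Y-linked signal it differed by -0.16. The list mean ran from 6.11 to 7.14 in Trem2-/- and from 6.14 to 6.74 in Trem2-/-5XFAD, and 2 of 16 markers were called. Trem2-/- 4 is the 1 Trem2-/- array with Y-linked signal, and the part of that signal in these decreases was tested only by the alternatives given here.

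Markers of other brain cells were called in a few cases. Gfap, the intermediate filament of reactive astrocytes, read 4.75, 4.33, 4.07 and 4.73 in Trem2-/- and 5.41 to 5.81 (median 5.65) in Trem2-/-5XFAD. It rose by 1.15 ± 0.18 (adjusted p = 0.000552) and by 2.16 ± 0.18 with Trem2 (interaction -1.01 ± 0.25, adjusted p = 0.0356). Clu, or clusterin, rose by 0.70 ± 0.15 (adjusted p = 0.0178), and lost its call without Trem2-/- 1 (0.67) or 2 (0.62) and with either covariate. Gfap lost its call with the markers of other brain cells as a covariate (0.93) and among arrays with Y-linked signal (0.89). These were 2 of 10 astrocyte markers, with a median of 0.38. Gfap and Clu are themselves part of the mean of markers of other brain cells. A weaker difference with that covariate is thus partly built in. Mbp, a myelin protein, read 5.67, 5.92, 6.02 and 6.13 in Trem2-/- and 6.74 to 7.04 (median 6.83) in Trem2-/-5XFAD, and rose by 0.93 ± 0.12 (adjusted p = 5.88e-05), as 1 of 9 oligodendrocyte markers. Among arrays with Y-linked signal Mbp was not called (0.74).

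Pecam1, an endothelial adhesion molecule also found on microglia and other leukocytes, fell by 0.71 ± 0.14 (adjusted p = 0.00604), 1 of 7 vascular markers, and lost its call with Y-linked signal (-0.61) or markers of other brain cells (-0.60) as a covariate. Pecam1 is itself part of the mean used as the second of these covariates. Of 5 monocyte markers Anxa2 alone rose, by 1.39 ± 0.17, while 0 of 5 neuronal, 0 of 11 neutrophil and 0 of 7 lymphocyte markers were called. Of 14 neuronal markers 9 did not pass the filter on low values, nor did 12 of 19 lymphocyte markers.

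Genes moving opposite ways with and without Trem2 were rare. Called in both in opposite directions were 2 genes. Enpp4, an enzyme that cleaves dinucleotides, read 4.90, 4.91, 4.72 and 5.09 in Trem2-/- and 5.27 to 5.95 (median 5.57) in Trem2-/-5XFAD. It rose by 0.68 ± 0.14 without Trem2 and fell by 0.68 ± 0.15 with it (interaction 1.36 ± 0.21, adjusted p = 0.000631). Enpp4 lies on chromosome 17, as Trem2 does. It averaged 6.12 in WT and 5.44 in 5XFAD, against 4.91 in Trem2-/- and 5.59 in Trem2-/-5XFAD. The Enpp4 call without Trem2 was lost without Trem2-/- 3 (0.62) and with either covariate. Among arrays with Y-linked signal alone Enpp4 differed by 0.49. Rcan3, a calcineurin regulator, read 6.60, 6.64, 6.47 and 6.69 in Trem2-/- and 6.97 to 7.33 (median 7.09) in Trem2-/-5XFAD. It rose by 0.50 ± 0.10 (adjusted p = 0.00539) and fell by 0.41 ± 0.10 with Trem2 (interaction 0.91 ± 0.14, adjusted p = 0.000552). Rcan3 averaged 7.08 in WT and 6.66 in 5XFAD, against 6.60 in Trem2-/- and 7.10 in Trem2-/-5XFAD. Like Enpp4, Rcan3 thus started lower in Trem2-/- than in WT, and the part of this in the opposite directions was not tested. Its call was lost with the markers of other brain cells as a covariate and among arrays with Y-linked signal alone.

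The largest positive interaction among the calls was that of the X-linked transcript G530011O06Rik, at 2.12 ± 0.38. It averaged 4.28 in Trem2-/- and 5.59 in Trem2-/-5XFAD, far below the 11.13 of WT and the 10.33 of 5XFAD, and rose by 1.31 ± 0.26 (adjusted p = 0.00915). Trem2-/- 4, with Y-linked signal, read 5.17 and lay within the Trem2-/-5XFAD range of 5.12 to 6.41, while Trem2-/- 1 to 3 read 3.91, 3.54 and 4.51. The call was lost with either covariate, and among arrays with Y-linked signal alone the difference was 0.42.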

How the data were processed

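Each array measured RNA of sorted microglia. The authors deposited 1 table of linear intensity values, 24679 probe sets by 20 arrays, with similar array medians (25.7 to 28.6); per the labels, 2 ng of total RNA was amplified and biotin-labelled, and the background correction and normalization are not given among the sources. Groups follow the genotype labels. The values were used as log2(intensity + 1). Probe sets were named through the platform annotation, updated with RefSeq (GRCm38.p6): 21354 had 1 gene, 1275 several and 2050 none. The probe set with the highest mean stood for a gene. Genes above the array's 40th percentile in at least 4 arrays (12728) were fitted in limma 3.58.1 (R 4.3.3) with 4 group means over 19 arrays, and p-values were adjusted by Benjamini-Hochberg at 0.05. The fit was checked on simulated data. The gene lists and members were chosen with earlier results of these data known. Named genes are Trem2, the 12 largest called increases and decreases, per list the 3 called members of lowest p, a fixed set, the 6 most positive and 6 most negative called interactions among the calls, and genes called in opposite directions; others are said to be chosen later. Promoters came from RefSeq. Alternatives changed the pseudocount, filter, normalization, variance model, covariates, probe set rule and arrays. The number of arrays limits the precision. Figures were drawn with matplotlib 3.10.9.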

Additional observations from a re-analysis of the deposited data

Results flagged for a closer look

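Single arrays stood apart from the rest of their group in 11 of 178 groups of values, where chance gives about 1 in 20. In Trem2-/-5XFAD, array 1 was low for Gpr165 (7.78) and high for monocyte markers (4.96). Array 2 of that genotype was low for Sall1 (9.45) and high for Egln3 (6.42) and Clec4a2 (7.88). Border macrophage markers were high in Trem2-/-5XFAD 3 (6.74) and vascular markers in Trem2-/-5XFAD 6 (4.08). In Trem2-/-, array 1 was high for neutrophil markers (5.81). Trem2-/- 4 was low for Hsph1 (6.52) and Xist (2.99) and high for the mean of the Y-linked genes (6.26).

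The response to 5XFAD differed by Trem2 genotype, by the interaction in limma, for 33 named genes. It was smaller without Trem2 for these genes that rose, with the interaction in log2 units: Cst7 (-0.97), Gpnmb (-3.07), Hpse (-2.05), Lpl (-2.20), Clec7a (-1.30), Igf1 (-2.23), Fabp5 (-3.09), Myo1e (-1.37), Lilrb4a (-1.11), Anxa5 (-0.89), Hif1a (-0.66), Ccl6 (-0.92), Itgax (-2.51), Axl (-2.20), Tlr2 (-0.64), Pkm (-0.64), Cox6a2 (-1.73), Gfap (-1.01), Anxa2 (-1.38), Egln3 (-3.19), Etl4 (-2.57) and Crip1 (-2.42). It was also smaller for genes that fell, Serpinf1 (0.99), Crybb1 (0.94), Pecam1 (0.92) and Clec4a2 (1.34). Cd74 (-1.98), Srebf2 (-1.15), P2ry12 (0.58) and Tmem119 (0.69) were called with Trem2 and not without it. Enpp4 (1.36) and Rcan3 (0.91) moved in opposite directions, and G530011O06Rik (2.12) rose without Trem2 and was not called with it.

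The array whose title says WT and whose genotype says Trem2-/- read 11.08 for Trem2, against 6.84 to 7.02 in the Trem2-/- arrays. It entered no group.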

How the results depend on the processing

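Of the 278 calls, all 278 kept their sign under every alternative that tested them except the fit of arrays with Y-linked signal alone, where 275 did. Of the 65 called named genes, 26 were called throughout. Genes higher in Trem2-/-5XFAD (207) became 137 with Y-linked signal as a covariate, 110 in Y-linked arrays alone, 121 without Trem2-/- 1 and Trem2-/-5XFAD 1, and 61 with markers of other brain cells as a covariate, with 129 to 231 when 1 array was left out. Genes lower (71) became 23, 13, 24 and 7 in the same order, with 29 to 104 when 1 array was left out. Called interactions (331) became 61 in Y-linked arrays alone and 208 without the 2 arrays, with 224 to 362 when 1 was left out. Calls shared with 5XFAD against WT (209) became 135, 74, 117 and 63, with 131 to 227 when 1 was left out. Lyve1 turned from -1.30 to 0.22 in Y-linked arrays alone. The cause of these shifts was not tested; fewer arrays widen the error, and either covariate moves with the groups. With the replicate block 153 genes were higher, 30 lower, 234 had a called interaction and 148 were shared. Same-numbered arrays correlated at 0.0842, 0.0542, -0.00545 and 0.104, and arrays of unlike number at -0.133 to 0.141. Whether same-numbered arrays share more than a number was not tested. With the array of conflicting labels counted as Trem2-/-, 262 were higher and 100 lower. With the 2 groups fitted alone, 250 were higher and 98 lower. Counts within lists under covariates or without the 2 arrays were alternatives chosen after seeing the data.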
